A study of Drosophila melanogaster with 12 samples.

Results

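The genes described here are the Drosophila melanogaster genes of the vacuolar ATPase, the proton pump of acidic compartments, whose symbols begin with Vha. A gene was included when a probe set of the array carried a Vha symbol and no other gene symbol, and the probe set with the highest mean over the 12 arrays stood for the gene. This gave 31 genes of the 11982 genes that single-gene probe sets name, through 32 probe sets, since Vha16-1 has 2. A RefSeq gene table lists 33 Vha symbols, and the other two, Vha68-1 and Vha68-2, which encode the catalytic A subunit, were not analysed here.

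Females of the strain w1118 were kept from eclosion for 10 days at 25 °C on holidic food, a diet made up entirely from defined chemicals, either unmodified or enriched with glucose to 100 g/L. RNA came from 5 whole flies or from 10 dissected midguts per sample. The 4 groups were therefore whole flies and midguts on either food, each with 3 samples, and all shared the w1118 background, the sex and the age. The samples are pools, a whole fly also contains its own midgut, and the labels leave unsaid whether the 3 samples in a group are separate rearings. The p-values therefore describe the spread among these samples, which may be technical. Each sample was hybridised to an Affymetrix 3' expression array, and values are the log2 probe set signals that the authors deposited. A difference of 1 on this scale is a 2-fold difference in signal.

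The vacuolar ATPase is a rotary pump. Its cytosolic sector, V1, is built from subunits A to H and splits ATP, and the turning of its central stalk drives a ring of proteolipids in the membrane sector, V0, which moves protons into lysosomes, endosomes and secretory vesicles. In some epithelia the pump also sits in the plasma membrane and secretes acid or energises other transporters, as in the copper cells of the fly midgut and in Malpighian tubules. Several subunits are encoded by more than one gene in the fly. From what is known of the family, 13 genes were taken as the shared subunits found in most tissues. The remaining 18 were all the other isoforms, whether tissue-limited or minor. This split was made by hand, with earlier results of these data known.

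Within a group, arrays correlated at 0.989 to 0.994 over all probe sets, and between tissues at 0.836 to 0.903. The median signal of an array was 4.04 to 4.15 in whole flies and 3.43 to 3.47 in midguts. As deposited, more probe sets were lower than higher in midguts, and a comparison of tissues depends on how the arrays are scaled, so tissue differences were also computed with array medians set equal and after quantile normalization. Replicate 1 of the midguts on glucose carried more signal of the 6 measured ovary markers than the other two, with a log2 summed signal of 10.18 against 6.63 and 5.85. Leaving this sample out left 22 of the 31 Vha genes called in either tissue comparison, and all 13 shared subunits were called higher without it.

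The first question was how the pump's genes differed between midgut and whole fly. All 13 shared subunits were higher in midguts on both foods, by a median of 1.05 on unmodified food and 0.96 on glucose in log2 signal, close to 2-fold. Among the other isoforms, Vha100-4 and Vha100-5, both a subunits, were far higher in midguts, whereas the accessory gene VhaAC45RP, the e subunit VhaM9.7-a, the D subunit Vha36-3 and the a subunit Vha100-1 were lower. Differences were tested with limma over all 12 arrays, adjusted by Benjamini-Hochberg over 18769 probe sets, and called at an adjusted p under 0.05. On unmodified food 23 of 31 Vha genes were called, 16 higher and 7 lower in midguts, where 55.5% of all probe sets were called, 14.9% higher and 40.6% lower. On glucose, the counts were again 16 higher and 7 lower, against 53% of all probe sets called, 11.8% higher and 41.2% lower. The arrays compared on glucose were separate, but the fit shared its estimate of spread between foods, so the calls are not an independent repeat. VhaPPA1-2 was called only on unmodified food and VhaAC39-2 only on glucose. Over all probe sets the median difference was -0.14 on unmodified food and -0.17 on glucose. With array medians set equal, the counts became 25 higher and 4 lower on unmodified food and 24 and 4 on glucose. Of all probe sets 85.5% and 83.1% were then called, so most of the array was called under this scaling. The median difference over all probe sets rose to 0.48 and 0.50, and the Vha genes newly called higher were all dim isoforms. With quantile normalization the Vha counts became 17 higher and 4 lower on both foods, against 56.8% and 52.9% of all probe sets called. The median difference over all probe sets was then 0.06 and 0.07.

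**Figure D1:**
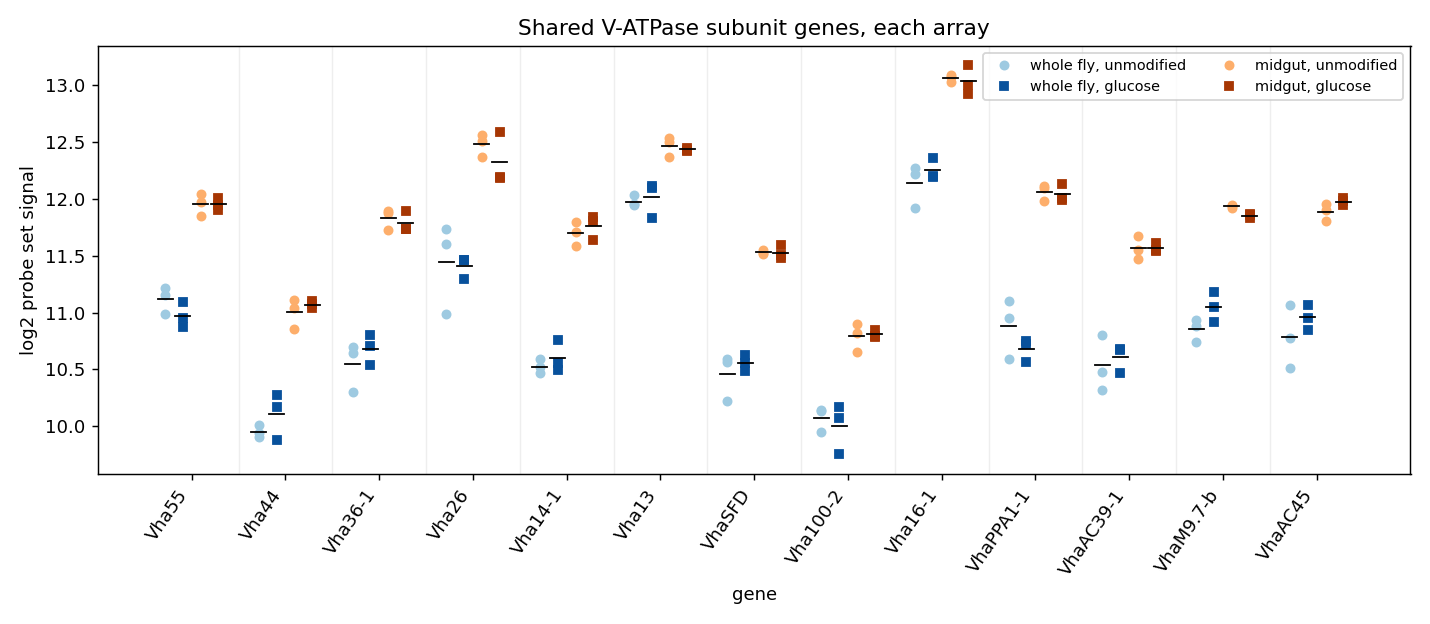
Log2 probe set signal (vertical axis) of the 13 shared Vha genes (horizontal axis) in each of the 12 arrays. Points are single arrays, coloured by tissue and food, and bars are group means; for every gene all 6 midgut arrays lie above all 6 whole fly arrays.

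In the cytosolic V1 sector, Vha55 (probe set 1625131_s_at) encodes the B subunit, which with subunit A forms the ATP-splitting head. Its log2 signal was 11.15, 10.98 and 11.22 in whole flies on unmodified food, 10.87, 11.09 and 10.95 in whole flies on glucose, 12.04, 11.85 and 11.98 in midguts on unmodified food and 11.94, 11.90 and 12.01 in midguts on glucose. All midgut samples were above all whole fly samples, and the difference was 0.84 (SE 0.10) on unmodified food and 0.98 (SE 0.10) on glucose, with limma adjusted p of 8.74e-06 and 2.62e-06. Vha44 (1635352_s_at) encodes subunit C, which joins the sectors and is released when the pump comes apart. It measured 9.94, 9.91 and 10.01 in whole flies on unmodified food, 9.88, 10.27 and 10.17 in whole flies on glucose, 11.04, 11.11 and 10.86 in midguts on unmodified food and 11.10, 11.04 and 11.07 in midguts on glucose. Here too the tissues did not overlap, and midguts were higher by 1.05 (SE 0.11) on unmodified food and 0.96 (SE 0.11) on glucose.

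The central stalk, which turns inside the head, is made of subunits D and F. Vha36-1 (1624086_at), the shared D subunit, measured 10.70, 10.30 and 10.64 in whole flies on unmodified food, 10.71, 10.54 and 10.80 in whole flies on glucose, 11.88, 11.72 and 11.89 in midguts on unmodified food and 11.74, 11.74 and 11.90 in midguts on glucose. Its tissue difference of 1.28 (SE 0.12) on unmodified food was the largest of the 13 there, with an adjusted p of 9.61e-07 by limma, and it was 1.11 (SE 0.12) on glucose. Vha14-1 (1639788_at), the shared F subunit, gave 10.59, 10.46 and 10.52 in whole flies on unmodified food, 10.49, 10.55 and 10.76 in whole flies on glucose, 11.80, 11.71 and 11.59 in midguts on unmodified food and 11.81, 11.84 and 11.64 in midguts on glucose. The midgut excess was 1.18 (SE 0.10) and 1.16 (SE 0.10) on the respective foods, and again no midgut sample fell within the whole fly range.

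Subunits E and G form the outer stalks that hold the head still. Vha26 (1629065_s_at), subunit E, read 11.60, 10.99 and 11.74 in whole flies on unmodified food, 11.46, 11.29 and 11.46 in whole flies on glucose, 12.56, 12.37 and 12.51 in midguts on unmodified food and 12.19, 12.20 and 12.59 in midguts on glucose. It was the most variable shared gene in whole flies on unmodified food, where replicate 2 was low, and it was higher in midguts by 1.04 (SE 0.18) and 0.92 (SE 0.18). Vha13 (1627006_at), subunit G, read 11.95, 12.03 and 11.95 in whole flies on unmodified food, 11.83, 12.11 and 12.10 in whole flies on glucose, 12.53, 12.37 and 12.50 in midguts on unmodified food and 12.42, 12.45 and 12.43 in midguts on glucose. It had the smallest tissue difference of the 13 on both foods, 0.49 (SE 0.10) on unmodified food and 0.42 (SE 0.10) on glucose, with limma adjusted p of 7.30e-04 and 0.00251. Under quantile normalization the Vha13 difference on unmodified food was 0.26 with a limma adjusted p of 0.0521, so it was no longer called. VhaSFD (1633931_a_at) encodes subunit H, which is required for activity of the assembled pump, and its signal was 10.59, 10.22 and 10.56 in whole flies on unmodified food, 10.56, 10.63 and 10.48 in whole flies on glucose, 11.55, 11.52 and 11.52 in midguts on unmodified food and 11.48, 11.51 and 11.60 in midguts on glucose. Midguts exceeded whole flies by 1.07 (SE 0.11) and 0.97 (SE 0.11) without overlap.

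In the membrane sector V0, Vha100-2 (1631359_s_at) encodes an a subunit, the stationary part through which protons pass. Its values were 10.13, 9.95 and 10.14 in whole flies on unmodified food, 9.75, 10.17 and 10.07 in whole flies on glucose, 10.90, 10.65 and 10.82 in midguts on unmodified food and 10.80, 10.79 and 10.85 in midguts on glucose. The groups were apart by 0.71 (SE 0.12) on unmodified food and 0.81 (SE 0.12) on glucose, midguts being higher. The rotating proteolipid ring is made of subunits c and c''. Vha16-1 (1630946_at), subunit c, showed 12.22, 11.92 and 12.27 in whole flies on unmodified food, 12.20, 12.20 and 12.36 in whole flies on glucose, 13.10, 13.03 and 13.08 in midguts on unmodified food and 13.004, 12.93 and 13.18 in midguts on glucose. Its difference between tissues was 0.93 (SE 0.11) and 0.78 (SE 0.11), and the gene's second probe set gave 0.79 and 0.76. VhaPPA1-1 (1637024_at), subunit c'', showed 11.10, 10.59 and 10.95 in whole flies on unmodified food, 10.57, 10.73 and 10.75 in whole flies on glucose, 12.11, 11.98 and 12.09 in midguts on unmodified food and 11.995, 12.01 and 12.13 in midguts on glucose. On glucose it had the largest tissue difference of the 13, 1.36 (SE 0.12) with a limma adjusted p of 1.03e-06, after 1.18 (SE 0.12) on unmodified food.

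VhaAC39-1 (1633535_at) is subunit d, which couples the central stalk to the ring. The measured values were 10.48, 10.32 and 10.81 in whole flies on unmodified food, 10.47, 10.68 and 10.67 in whole flies on glucose, 11.68, 11.47 and 11.55 in midguts on unmodified food and 11.61, 11.54 and 11.55 in midguts on glucose. Midguts were higher by 1.03 (SE 0.12) and 0.96 (SE 0.12), with no overlap. VhaM9.7-b (1623653_at), the shared form of the small membrane subunit e, measured 10.74, 10.88 and 10.94 in whole flies on unmodified food, 10.91, 11.05 and 11.18 in whole flies on glucose, 11.92, 11.95 and 11.94 in midguts on unmodified food and 11.83, 11.87 and 11.86 in midguts on glucose. This gave a tissue difference of 1.08 (SE 0.09) on unmodified food and 0.80 (SE 0.09) on glucose. VhaAC45 (1626261_s_at) is an accessory subunit whose mammalian counterpart takes part in assembly of the pump. It stood at 10.78, 10.52 and 11.07 in whole flies on unmodified food, 10.85, 10.96 and 11.07 in whole flies on glucose, 11.90, 11.81 and 11.95 in midguts on unmodified food and 11.98, 12.01 and 11.95 in midguts on glucose. It was higher in midguts by 1.10 (SE 0.13) and 1.02 (SE 0.13), again with every midgut sample above every whole fly sample.

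Across the 13 shared subunits the limma adjusted p lay between 4.64e-07 and 0.00073 on unmodified food and between 8.23e-07 and 0.00251 on glucose. In all 13 the groups did not overlap on either food, where 18.9% of all probe sets were higher in midguts without overlap on unmodified food and 15.1% on glucose. The median difference of the 13 was 1.67 on unmodified food and 1.64 on glucose with array medians set equal, and 0.86 and 0.94 under quantile normalization. Over all probe sets the medians were 0.48 and 0.50 with array medians set equal and 0.06 and 0.07 under quantile normalization. A second accessory subunit, the prorenin receptor homologue ATP6AP2, listed in older annotation as VhaM8.9, is not a Vha gene by symbol. It was higher in midguts by 1.34 (SE 0.15) and 1.27 (SE 0.15). In pooled tissue RNA, more cells of a type and more RNA per cell cannot be told apart.

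The shared genes also varied together between samples of the same group. In whole flies on unmodified food replicate 2 was the lowest of the 3 samples for 11 of the 13 genes and replicate 3 the highest for 8. Among whole flies on glucose replicate 1 was the lowest for 9. Midgut replicate 2 on unmodified food was the lowest for 10 and midgut replicate 1 the highest for 9. The 13 genes are therefore not independent measurements of the tissue difference.

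**Figure D2:**
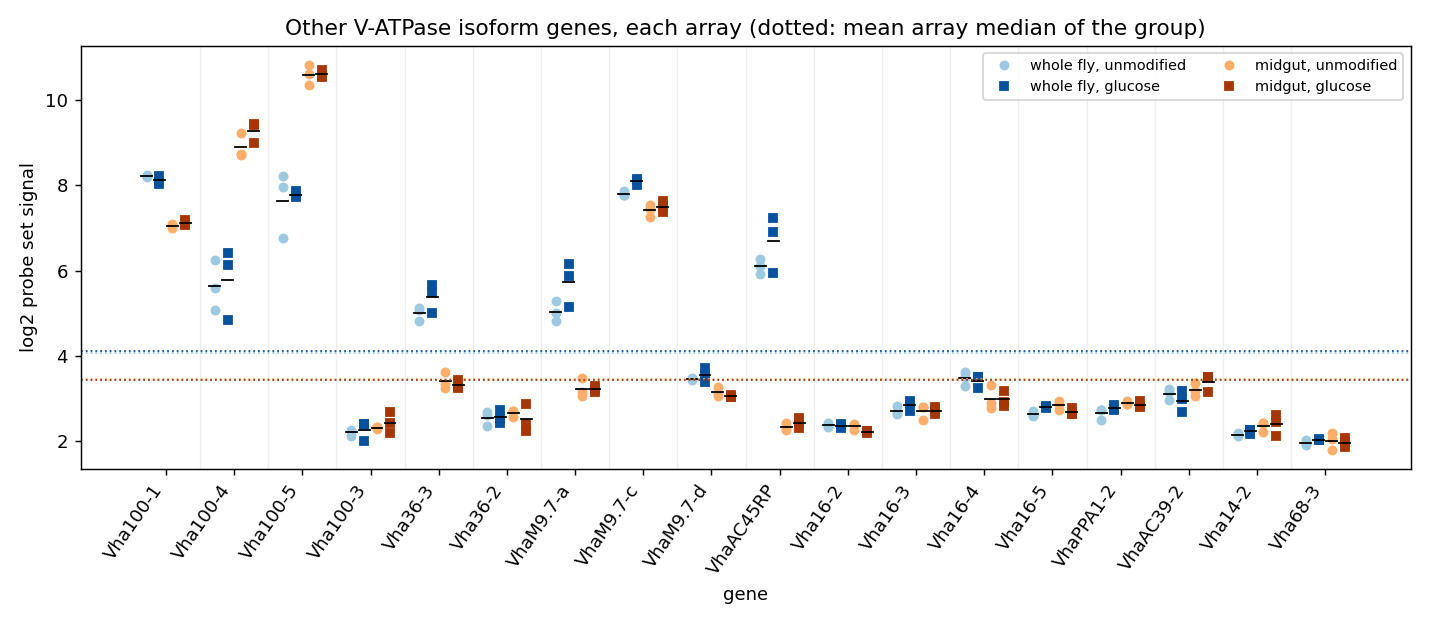
Log2 probe set signal (vertical axis) of the 18 other Vha isoforms (horizontal axis) in each of the 12 arrays, with bars at group means and dotted lines at the mean array median of each group. Vha100-4 and Vha100-5 are higher in midguts, VhaAC45RP, VhaM9.7-a, Vha36-3 and Vha100-1 are lower, and most of the remaining genes lie below the array medians.

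The 18 other isoforms did not move as a group. On unmodified food 3 were called higher in midguts, 7 lower and 8 were not called, with a median difference of 0.03. On glucose the counts were the same, with a median of -0.12. The 10 of 18 called are close to the share of all probe sets called, 55.5% on unmodified food and 53% on glucose, so these isoforms are described singly. The a subunit, which in other organisms directs the pump to particular membranes, contributed the isoforms highest in midguts. Vha100-4 (1636240_at) measured 5.58, 5.07 and 6.25 in whole flies on unmodified food, 4.83, 6.41 and 6.13 in whole flies on glucose, 9.22, 8.74 and 8.71 in midguts on unmodified food and 9.43, 9.41 and 8.98 in midguts on glucose. All midgut samples lay far above the whole fly samples, by 3.26 (SE 0.37) or 9.55-fold on unmodified food and 3.48 (SE 0.37) or 11.2-fold on glucose, with limma adjusted p of 5.80e-06 and 3.96e-06. Vha100-5 (1636474_at) measured 8.21, 6.76 and 7.95 in whole flies on unmodified food, 7.86, 7.72 and 7.74 in whole flies on glucose, 10.81, 10.34 and 10.60 in midguts on unmodified food and 10.59, 10.70 and 10.54 in midguts on glucose. It was higher in midguts by 2.94 (SE 0.28), 7.70-fold, on unmodified food and by 2.84 (SE 0.28), 7.15-fold, on glucose. In whole flies on unmodified food both genes were lowest in replicate 2. The other scalings widened both differences, to 3.87 to 4.16 for Vha100-4 and 3.24 to 3.56 for Vha100-5 over the 2 foods.

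Vha100-1 (1632395_s_at) is the a subunit known from fly neurons and their synaptic vesicles. It ran the opposite way, at 8.18, 8.25 and 8.21 in whole flies on unmodified food, 8.11, 8.02 and 8.21 in whole flies on glucose, 6.99, 7.07 and 7.10 in midguts on unmodified food and 7.06, 7.18 and 7.11 in midguts on glucose. Every midgut sample was below every whole fly sample, and the difference was -1.16 (SE 0.09), with a limma adjusted p of 1.25e-07, on unmodified food and -0.99 (SE 0.09), with 6.89e-07, on glucose. Its size depended on scaling. With array medians set equal the differences were -0.54 and -0.32, and after quantile normalization -0.39 and -0.32, each still called. Vha100-3, a further a isoform, stayed below the array median on all 12 arrays and was not called as deposited.

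VhaAC45RP (1625272_at), an accessory protein related to VhaAC45, had the largest measured tissue difference of the family in the values as deposited. It measured 6.12, 6.27 and 5.91 in whole flies on unmodified food, 6.90, 5.95 and 7.23 in whole flies on glucose, 2.43, 2.33 and 2.26 in midguts on unmodified food and 2.43, 2.55 and 2.32 in midguts on glucose. In midguts its signal was below the array median in every sample. The difference was -3.76 (SE 0.24) on unmodified food and -4.26 (SE 0.24) on glucose, with limma adjusted p of 3.90e-08 and 2.54e-08. It ranged from -3.15 to -3.14 on unmodified food and from -3.71 to -3.58 on glucose under the other scalings. Under these scalings Vha100-4 had the larger difference, at 3.87 and 4.16 with array medians set equal and 3.93 and 4.16 after quantile normalization. The midgut signal of VhaAC45RP is near the bottom of the scale and no detection call was used here, so no fold is given. The shared VhaAC45 was higher in midguts in the same samples.

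VhaM9.7-a (1635300_at), an e subunit, measured 5.01, 4.81 and 5.28 in whole flies on unmodified food, 5.88, 5.15 and 6.16 in whole flies on glucose, 3.07, 3.48 and 3.15 in midguts on unmodified food and 3.17, 3.22 and 3.31 in midguts on glucose. It too was close to or below the array median in midguts and above it in whole flies. The difference was -1.80 (SE 0.22) on unmodified food and -2.50 (SE 0.22) on glucose. Vha36-3 (1635610_at), a D subunit isoform, measured 5.11, 4.83 and 5.09 in whole flies on unmodified food, 5.50, 4.999 and 5.66 in whole flies on glucose, 3.34, 3.63 and 3.24 in midguts on unmodified food and 3.26, 3.24 and 3.44 in midguts on glucose. Its tissue difference was -1.61 (SE 0.17) and -2.07 (SE 0.17). Of the measured D subunit genes Vha36-1 was thus higher and Vha36-3 lower in midguts, while Vha36-2 was dim throughout and not called as deposited. With array medians set equal the differences shrank to -1.19 and -1.82 for VhaM9.7-a and to -0.99 and -1.39 for Vha36-3. After quantile normalization they were -1.09 and -1.70 for VhaM9.7-a and -0.83 and -1.23 for Vha36-3. These 2 genes, Vha100-1 and VhaAC45RP were called lower in midguts under every scaling, filter and omitted sample that was tried.

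VhaM9.7-c (1639067_at), another e subunit gene, was bright in all groups, at 7.78, 7.86 and 7.77 in whole flies on unmodified food, 7.99, 8.15 and 8.12 in whole flies on glucose, 7.45, 7.54 and 7.25 in midguts on unmodified food and 7.63, 7.51 and 7.36 in midguts on glucose. It was called lower in midguts as deposited, at -0.39 (SE 0.10) and -0.59 (SE 0.10), with limma adjusted p of 0.00665 and 3.34e-04. This direction depended on scaling. With array medians set equal the differences were 0.23 and 0.09, neither called, with limma adjusted p of 0.0661 and 0.462. Under quantile normalization the difference of 0.42 on unmodified food was called higher in midguts, with a limma adjusted p of 0.00204. The 0.05 on glucose was not called, with 0.691.

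The remaining 4 called isoforms were dim. Vha16-4 (1641684_at), a c subunit isoform, measured 3.50, 3.61 and 3.31 in whole flies on unmodified food, 3.51, 3.50 and 3.26 in whole flies on glucose, 2.78, 2.89 and 3.32 in midguts on unmodified food and 3.19, 2.83 and 2.93 in midguts on glucose, and was called lower in midguts, at -0.48 (SE 0.15) and -0.44 (SE 0.15). VhaM9.7-d (1635067_at), an e isoform, measured 3.43, 3.46 and 3.48 in whole flies on unmodified food, 3.56, 3.71 and 3.40 in whole flies on glucose, 3.07, 3.14 and 3.27 in midguts on unmodified food and 3.04, 3.05 and 3.09 in midguts on glucose, and was called lower at -0.30 (SE 0.10) and -0.50 (SE 0.10). With array medians set equal both genes changed sign, Vha16-4 at 0.14 and 0.24 and VhaM9.7-d at 0.32 and 0.18. Of these only VhaM9.7-d on unmodified food was called, with a limma adjusted p of 0.0125. After quantile normalization neither was called, Vha16-4 standing at -0.17 and -0.10 and VhaM9.7-d at 0.06 and -0.12. A replicate block also ended the Vha16-4 call on glucose, with a limma adjusted p of 0.0529. VhaPPA1-2 (1623034_at), a c'' isoform, measured 2.73, 2.73 and 2.50 in whole flies on unmodified food, 2.72, 2.76 and 2.85 in whole flies on glucose, 2.87, 2.94 and 2.88 in midguts on unmodified food and 2.84, 2.80 and 2.93 in midguts on glucose, with a difference of 0.24 (SE 0.09) called on unmodified food and 0.08 (SE 0.09) on glucose. VhaAC39-2 (1628829_at), a d isoform, measured 2.96, 3.15 and 3.22 in whole flies on unmodified food, 3.18, 2.9996 and 2.68 in whole flies on glucose, 3.36, 3.19 and 3.07 in midguts on unmodified food and 3.52, 3.51 and 3.17 in midguts on glucose, with 0.09 (SE 0.15) on unmodified food and a called 0.44 (SE 0.15) on glucose. The other scalings widened the differences of VhaPPA1-2 and VhaAC39-2. With array medians set equal VhaPPA1-2 stood at 0.86 and 0.76 and VhaAC39-2 at 0.71 and 1.12, all called. After quantile normalization VhaPPA1-2 was called at 0.39 and 0.27. VhaAC39-2 was then called at 0.84 on glucose but not at 0.40 on unmodified food. As deposited, the differences of all 4 genes are small steps near background, and their calls were lost when single samples were left out. Of 12 single omissions, Vha16-4 lost its call in 3 on unmodified food and 4 on glucose, VhaM9.7-d in 4 and 0, VhaPPA1-2 in 7 on unmodified food and VhaAC39-2 in 3 on glucose.

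The other 7 isoforms, Vha100-3, Vha14-2, Vha16-2, Vha16-3, Vha16-5, Vha36-2 and Vha68-3, were below the array median on every array. Their group means ran from 1.96 to 2.86, and as deposited none was called in any comparison. With array medians set equal all 7 were called higher in midguts on both foods, where 85.5% and 83.1% of all probe sets were called. After quantile normalization a single member of this set was called higher in midguts, on unmodified food only. Among the 7 is Vha68-3, the one measured A subunit gene. Several of these isoforms are known from the testis, which these female samples lack. Whether this bears on their low signal was not tested. All 10 testis markers measured were uncalled between tissues as deposited, with group means below the array median for 10 of 10 in whole flies and 9 of 10 in midguts. The brightest was Mst98Ca at 3.81 in midguts on unmodified food.

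**Figure D3:**
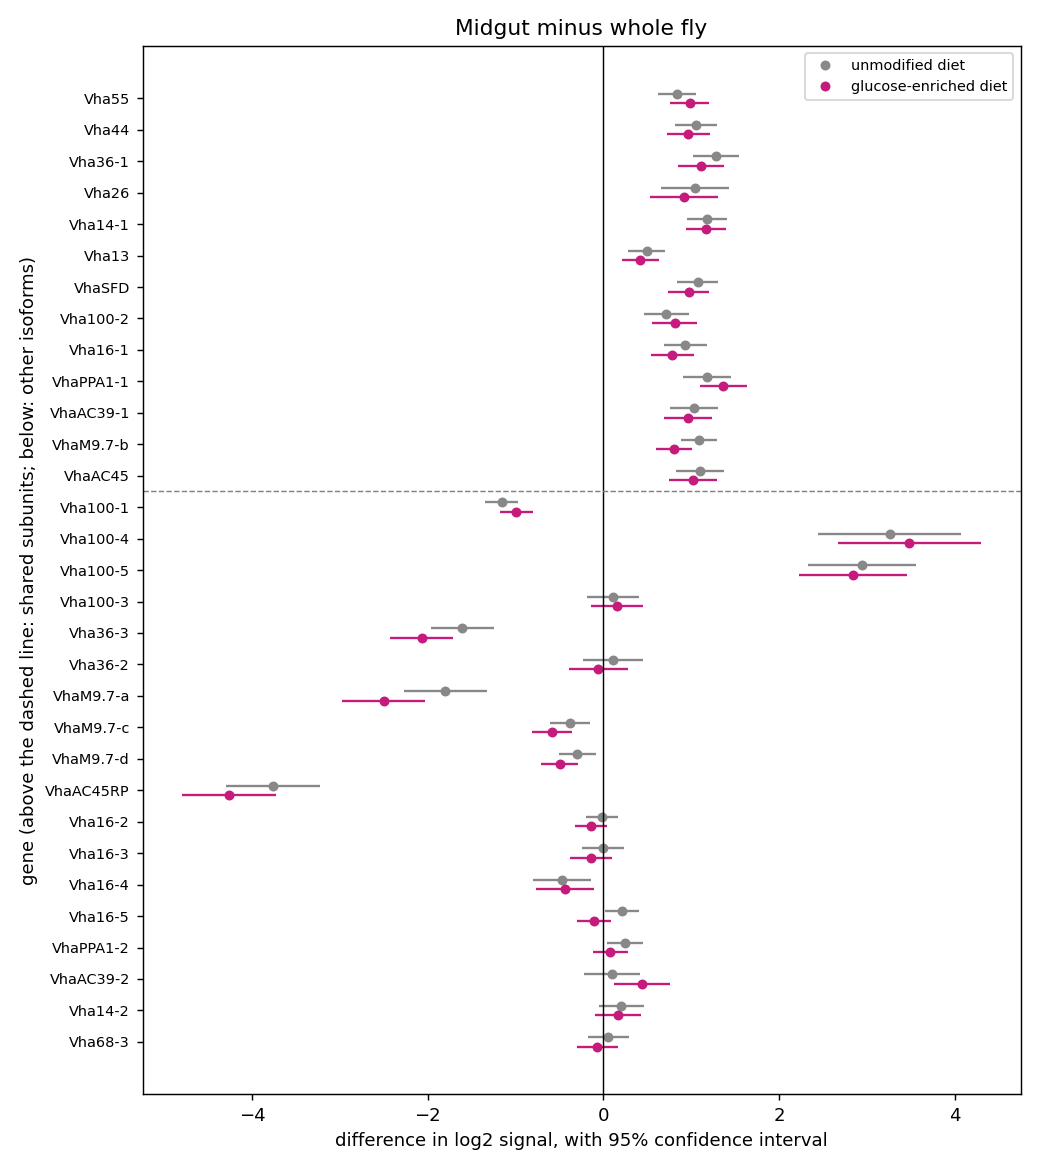
Difference in log2 signal between midgut and whole fly (horizontal axis) for each of the 31 Vha genes (vertical axis) on unmodified and on glucose-enriched food, with 95% confidence intervals. The 13 shared subunits above the dashed line all lie to the right of 0, while the other isoforms below it lie on both sides, from VhaAC45RP at -4.26 to Vha100-4 at 3.48, both on glucose.

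Markers of other tissues moved with the same contrast. Of 7 measured Malpighian tubule markers, of 9 listed, 6 were called higher in midguts on both foods, and their summed linear signal was 402 to 479 in whole flies and 1962 to 2856 in midguts on unmodified food, and 370 to 571 against 2039 to 2680 on glucose. The brightest, the organic anion transporter gene Oatp58Dc, was higher in midguts by 3.62 (SE 0.31) and 3.49 (SE 0.31). Malpighian tubules attach to the gut at the end of the midgut and are rich in the pump, and their part in the Vha results was not tested. The acid-region regulators Ptx1 and dve were higher in midguts by 2.64 (SE 0.16) and 1.70 (SE 0.24) on unmodified food and by 2.77 (SE 0.16) and 1.52 (SE 0.24) on glucose, and lab, the defining gene of copper cells, was not measured by a single-gene probe set. Of 7 measured midgut markers, of 9 listed, 6 were called higher in midguts on both foods, and Muc68D was lower by 7.47 and 8.56 in log2 signal. The mean summed linear signal of the midgut markers in midguts was 2.25 and 2.05 times that in whole flies on the respective foods. For the tubule markers it was 5.38 and 5.36 times. All 6 measured ovary markers, of 7 listed, were called lower in midguts on both foods, with list medians of -6.26 and -4.59, as were all 5 photoreceptor genes trp, trpl, inaD, Arr1 and Arr2, with -4.55 and -6.02. Of 7 measured neuron markers, of 9 listed, 6 were called lower in midguts on both foods, in the direction of Vha100-1, VhaAC45RP, VhaM9.7-a and Vha36-3, and the part of ovary, eye or nervous tissue in those differences was not tested.

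The second question was whether dietary glucose changed these genes. In midguts none of the 31 Vha genes was called by limma on the 6 midgut arrays, none reached an unadjusted p under 0.05, and over all probe sets 0.00533% were called and 6.2% reached that unadjusted level. The shared subunits had a median difference of -0.003, and their individual values lay between -0.16 for Vha26 and 0.09 for VhaAC45. Their 95% confidence intervals ran at the widest from -0.47 to 0.31, so changes of a log2 unit in any of the 13 lie outside these intervals, while small ones could not be told from 0. The largest difference among the 31 was that of Vha100-4, 0.38 (SE 0.18), with values of 9.22, 8.74 and 8.71 on unmodified food and 9.43, 9.41 and 8.98 on glucose. These groups overlapped, and the limma adjusted p was 0.799.

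In whole flies, glucose again led to no called Vha gene, where 3.11% of all probe sets were called, and 2 of the 31 reached an unadjusted p under 0.05 against 21.4% of all probe sets. The median difference of the shared subunits was 0.08, with values from -0.20 for VhaPPA1-1 to 0.20 for VhaM9.7-b and 95% confidence intervals between -0.54 and 0.52. The largest differences were in isoforms that are low in midguts. VhaM9.7-a measured 5.01, 4.81 and 5.28 on unmodified food and 5.88, 5.15 and 6.16 on glucose, a difference of 0.70 (SE 0.25) with a limma adjusted p of 0.158. VhaAC45RP measured 6.12, 6.27 and 5.91 and 6.90, 5.95 and 7.23, a difference of 0.59 (SE 0.30) with an adjusted p of 0.306 by limma. In both genes replicates 1 and 3 on glucose lay above all samples on unmodified food and replicate 2 lay among them. Vha36-3 had the same arrangement, at 5.11, 4.83 and 5.09 and 5.50, 4.999 and 5.66, and a difference of 0.37 (SE 0.18). VhaM9.7-c differed by 0.29 (SE 0.10) without overlap, at 7.78, 7.86 and 7.77 against 7.99, 8.15 and 8.12, with a limma adjusted p of 0.136.

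These whole fly results changed when single samples were left out. Without replicate 2 on glucose, limma called VhaM9.7-a at 0.98, VhaAC45RP at 0.96 and Vha36-3 at 0.57, with adjusted p of 0.0253, 0.0242 and 0.0498, while 8.33% of all probe sets were called. Without replicate 2 of both foods, VhaM9.7-a and VhaAC45RP were called, with limma adjusted p of 0.0268 and 0.0199, while 7.38% of all probe sets were called. Signal of photoreceptor genes moved with diet in the same whole flies: all 5 of the genes trp, trpl, inaD, Arr1 and Arr2, a list added after earlier results were known, were called higher on glucose, with a median difference of 1.19. Their log2 summed signal was 12.03, 11.43 and 11.99 on unmodified food and 13.10, 12.57 and 12.93 on glucose, with replicate 2 the lowest on both foods. The log2 summed signal of the 7 neuron markers was 8.32, 8.59 and 8.14 on unmodified food and 8.46, 8.35 and 8.69 on glucose. Ovary markers moved as well, with a list median of -0.66 on glucose and 1 of 6, orb, called lower. Their log2 summed signal was 12.98, 13.31 and 13.30 on unmodified food and 12.40, 12.09 and 13.15 on glucose. The part of these tissues in the Vha values was not tested.

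Whether glucose acted differently in the 2 tissues was tested as an interaction over all 12 arrays. No Vha gene was called, where 0.0426% of all probe sets were, and 2 reached an unadjusted p under 0.05 against 15.1% of all probe sets. These were Vha16-5, at -0.32 (SE 0.13) with a limma adjusted p of 0.261, and VhaM9.7-a, at -0.70 (SE 0.31) with 0.311, both as the midgut effect minus the whole fly effect. The median over the shared subunits was -0.08.

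**Figure D4:**
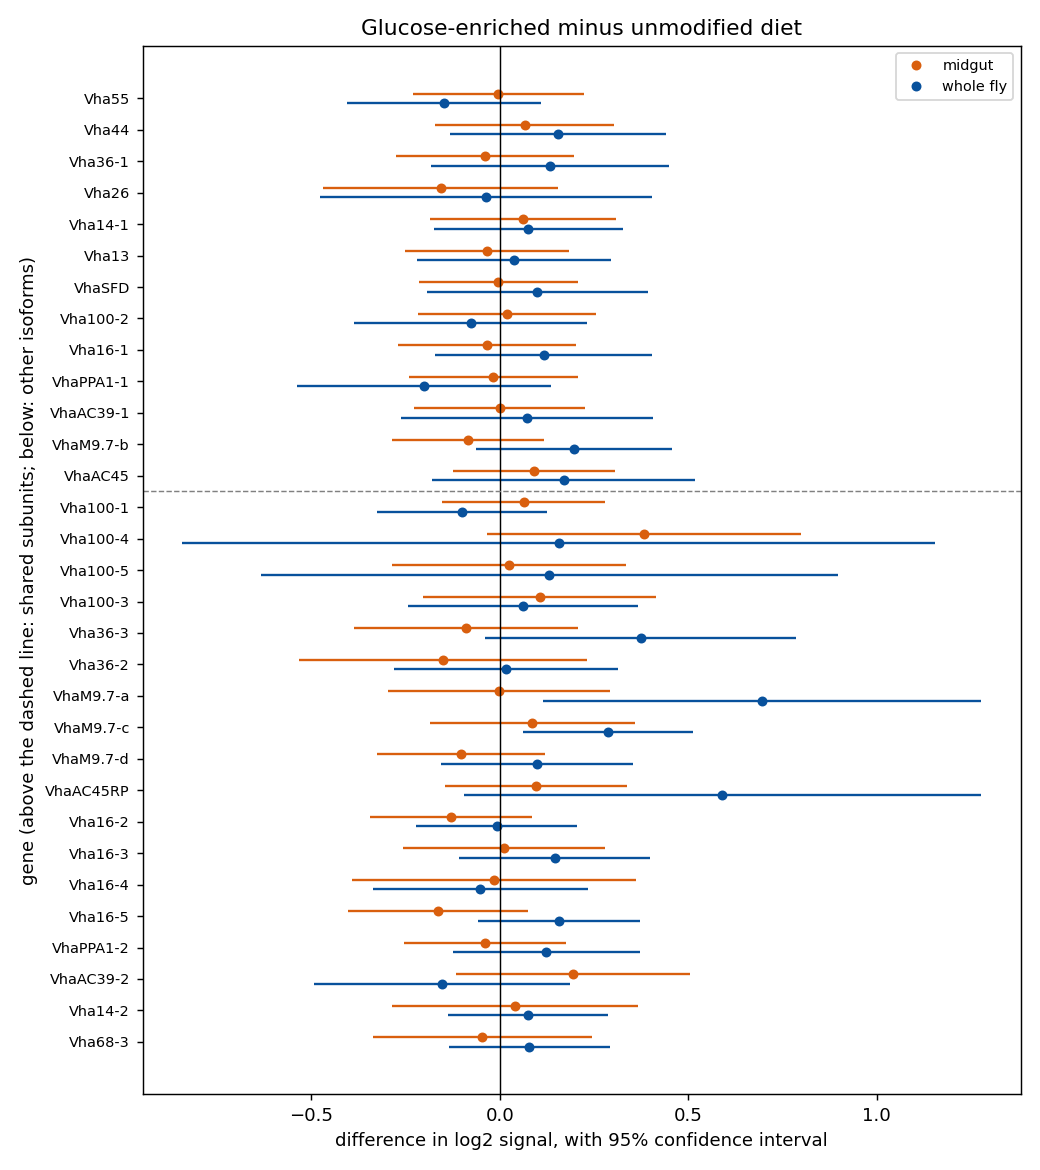
Difference in log2 signal between glucose-enriched and unmodified food (horizontal axis) for each of the 31 Vha genes (vertical axis), in midguts and in whole flies, with 95% confidence intervals. In midguts every interval includes 0, and in whole flies only those of VhaM9.7-a and VhaM9.7-c do not, before any adjustment for the number of probe sets tested.

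Genes that act with the pump were read beside it. The lysosome surface, where the pump meets nutrient signalling, was represented by 12 measured genes of 18 listed for pump assembly and for the TORC1 pathway. On unmodified food 2 were called higher and 5 lower in midguts, with a list median of -0.06, and on glucose 2 and 6, with -0.27. These 7 and 8 of 12 are near the 55.5% and 53% of all probe sets called. Rbcn-3B, a rabconnectin-3 gene that acts in pump assembly, was higher in midguts by 0.54 (SE 0.09) and 0.56 (SE 0.09), in the direction of the shared subunits. The other gene of this list called higher was Mitf, by 0.84 (SE 0.18) and 0.48 (SE 0.18). Nprl3 and Iml1, parts of the GATOR1 complex that restrains TORC1, were lower, at -2.21 (SE 0.14) and -0.92 (SE 0.16) on unmodified food and -1.67 (SE 0.14) and -1.27 (SE 0.16) on glucose. A further GATOR1 gene, Nprl2, was lower on both foods, at -1.21 (SE 0.15) and -0.64 (SE 0.15), and so was RagC-D, a Rag GTPase, at -0.58 (SE 0.13) and -0.61 (SE 0.13).

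Lysosomal genes were mixed. Of 12 measured, of 14 listed, 7 were called higher and 4 lower in midguts on unmodified food, and 3 and 4 on glucose, with list medians of 0.28 and -0.01. Of all probe sets 14.9% were called higher and 40.6% lower on unmodified food and 11.8% and 41.2% on glucose, so on glucose the 7 of 12 called are near the background of 53%. Cln3, a lysosomal membrane protein, was higher by 2.29 (SE 0.15) and 1.63 (SE 0.15), and Ppt1, a lysosomal thioesterase, was lower at -1.06 (SE 0.14) and -1.09 (SE 0.14). Lerp, a sorting receptor for lysosomal enzymes, and Cln7, a membrane transporter, were higher by 1.78 (SE 0.16) and 1.55 (SE 0.17) on unmodified food and by 1.21 (SE 0.16) and 0.91 (SE 0.17) on glucose. The efflux transporter spin and the protease CtsL1 were lower, at -1.21 (SE 0.17) and -0.69 (SE 0.13) on unmodified food and -1.43 (SE 0.17) and -1.05 (SE 0.13) on glucose. The shared Vha genes thus all lay on one side while these lysosomal genes lay on both.

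Of 12 acid-base transport genes, all measured, 8 were called higher and 3 lower in midguts on unmodified food and 7 and 2 on glucose, with list medians of 0.80 and 0.61. The shares of all probe sets were 14.9% higher and 40.6% lower on unmodified food and 11.8% and 41.2% on glucose. The cation/proton antiporter genes Nha1 and Nha2 were higher, by 1.83 (SE 0.12) and 2.25 (SE 0.20) on unmodified food and 2.03 (SE 0.12) and 2.22 (SE 0.20) on glucose. CAH1, a carbonic anhydrase, which supplies protons and bicarbonate, was higher by 1.99 (SE 0.17) and 1.67 (SE 0.17). Nhe3, a sodium/proton exchanger gene, was lower at -1.86 (SE 0.11) and -1.95 (SE 0.11).

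None of the 36 measured genes of these 3 lists was called for diet in either tissue or for the interaction. With 0.00533% of all probe sets called in midguts, 3.11% in whole flies and 0.0426% for the interaction, few or no calls among 36 genes match the background. In whole flies the smallest limma adjusted p were those of Iml1 at 0.77 (SE 0.17) with 0.0541, the anion exchanger Ndae1 at 0.68 (SE 0.16) with 0.0577, and Cln7 at 0.66 (SE 0.16) with 0.0600. The next were Nprl3 at -0.56 (SE 0.16) and the Ragulator gene Lamtor4 at 0.38 (SE 0.13) in the first list, the protease cathD at 0.33 (SE 0.11) and Cln3 at 0.52 (SE 0.17) among lysosomal genes, and Nhe1 at -0.28 (SE 0.10) and the chloride transporter ClC-c at -0.34 (SE 0.15) among acid-base genes. In midguts, Iml1 at 0.42 (SE 0.12), CtsB at -0.29 (SE 0.13) and Nha2 at 0.43 (SE 0.14) had the smallest p of their lists, with limma adjusted p of 0.690, 0.799 and 0.721.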

How the data were processed

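The deposited table holds 1 log2 signal per probe set and array, in which the authors summarised the scans with Affymetrix Expression Console, per the submitters' processing notes. Its version, the summarising method and any joint normalization of the tissues were not given in the sources used here. That the scale is log2 follows from the range of the values, 1.44 to 14.1. Of 18952 probe sets, 183 Affymetrix controls were left out. Gene symbols came from the platform annotation, in which 13647 probe sets carry 1 symbol, 402 several and 4720 none, and all 31 members matched the RefSeq table by gene identifier. The files name no genome build, so no coordinates are given, and the planned motif search in promoters was not run because no promoter sequence was used here.

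Tissue contrasts and the interaction were fitted with limma 3.58.1 (R 4.3.3) over all 12 arrays, and diet contrasts over the 6 arrays of a tissue, with no covariate. Two-sided p-values were adjusted over 18769 probe sets. On simulated data in which 200 probe sets were changed by 1 log2 unit, the fit recovered 86.3% of them for the tissue contrast on unmodified food, 80.9% for diet in midguts and 76.2% for diet in whole flies. The adjusted cutoff depends on how many probe sets change, and in the data 55.5%, 0.00533% and 3.11% were called in these contrasts. These percentages check the fit and are not the power to call a Vha gene here. An exact permutation test of 3 against 3 samples cannot go below 0.1, so single genes rest on the variance that limma shares across probe sets. Replicate numbers are in the labels. Deviations of same-numbered midguts correlated at 0.31 to 0.39, but the labels do not say what a shared number means. The main fits used no pairing. An alternative fit with the replicate number as a block called 0 Vha genes for diet in midguts, where 0.128% of all probe sets were called.

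Every Vha gene is accounted for. Arrays are given singly for shared subunits and for isoforms that were above the array median or called, and from other lists up to 4 called genes, or up to 3 uncalled genes, with the smallest p are named. The members and lists were chosen with earlier results of these data known. The number of arrays limits the precision.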

Additional observations from a re-analysis of the deposited data

How the results depend on the processing

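The tissue counts of 23 called Vha genes on each food stayed within 1.5 times under a filter that removed the dimmest 40% of probe sets, a trended robust prior, both other scalings, averaged probe sets, a fit on the 6 arrays of the food and the replicate number as a block. Leaving out single arrays gave 20 to 23 called genes on unmodified food and 21 to 23 on glucose, with shared subunit medians of 0.95 to 1.13 and 0.93 to 1.01. Setting array medians equal moved the shared medians to 1.67 and 1.64, as it raised midgut arrays by 0.61 and 0.68 relative to whole fly arrays. It reversed the sign of Vha16-4 (0.14 and 0.24), VhaM9.7-c (0.23 and 0.0879) and VhaM9.7-d (0.32 and 0.18). Quantile normalization reversed the sign of VhaM9.7-c (0.42 and 0.0491) and, on unmodified food, VhaM9.7-d (0.0594). Of these reversed values only the 0.32 of VhaM9.7-d and the 0.42 of VhaM9.7-c were called. For diet in whole flies, where 0 genes and 3.11% of all probe sets were called, quantile normalization called 1. This was VhaM9.7-c at 0.43 with a limma adjusted p of 0.0424, where 4.06% of all probe sets were called. The replicate block there called 1, VhaM9.7-a with a limma adjusted p of 0.0352, where 9.12% of all probe sets were called. Same-numbered whole fly samples correlated at only -0.01 to 0.31 and are not shown to be pairs. Leaving out replicate 2 of both foods, an alternative chosen after seeing the data, called 2 genes and 7.38% of all probe sets. Leaving out single arrays called 0 to 3, the highest without glucose replicate 2, where 8.33% of all probe sets were called. For the interaction single omissions called 0 to 2, the highest again without that sample. There 1.92% of all probe sets were called, against 0.0426% with all samples. Single omissions gave shared medians of -0.05 to 0.01 for diet in midguts, 0.01 to 0.15 in whole flies and -0.16 to 0.02 for the interaction. The cause of these changes was not tested. For diet in midguts 0 genes were called under every alternative run. The motif search was not run. Dim isoforms are limited by signal near background.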

Other observations

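In the RefSeq gene order, Vha100-4 lies next to Vha100-2 with 0 genes between them, and VhaPPA1-2 and VhaPPA1-1 are separated by 1 gene. On unmodified food the neighbours Vha100-4 and Vha100-2 were both called higher in midguts, by 3.26 and 0.71 in log2 signal, whereas VhaPPA1-1 was higher by 1.18 and VhaPPA1-2 stayed dim, with a difference of 0.24. Vha16-3 and Vha16-2, also separated by 1 gene, were both dim on all arrays and, as deposited, uncalled. No difference within a pair of neighbours was tested.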
